A study of Mus musculus with 54 samples.

Results

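The 7 genes described here, Nphs1, Podxl, Synpo, Clic5, Ptpro, Wt1 and Cdkn1c, are genes of the podocyte, chosen by name from 32563 genes listed in the bulk tables and 19290 listed in the 10x tables of a mouse kidney series. The question put to them was whether bulk RNA loses these transcripts after warm dissociation in the way that podocyte barcodes are lost from droplet libraries. The series held 54 libraries in 18 conditions of 3 libraries each, 15 of them bulk RNA-seq and 39 of them 10x libraries, in which molecules are counted by unique identifiers (UMIs) within cell barcodes. All mice were untreated, and they came in 3 batches. Male C57BL/6J mice of 19 weeks, given as the line AFAPIL.1DEL C57BL/6J in the study's methods, gave cell suspensions made at 37 °C with a commercial enzyme kit (warm) or on ice with a protease of Bacillus licheniformis (cold). Enzyme, temperature and centrifugation differed together between these protocols and cannot be told apart. These suspensions were profiled in bulk and, with 10x chemistry version 2, as fresh, cryopreserved (6 weeks) or methanol-fixed cells. Male Balb/c mice of 18 weeks gave cold fresh cells, sorted nuclei (both chemistry version 2) and intact kidney in bulk. Female Balb/c mice of 15 weeks gave cold fresh and cryopreserved (2 weeks) cells and 3 kinds of nuclei (chemistry version 3), and bulk libraries of intact kidney and of the cold suspension. The 3 sets of mice differ in several of strain, sex, age, batch and chemistry, which cannot be told apart, so comparisons were made within each set.

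Podocytes are the epithelial cells that wrap the capillaries of the glomerulus with interlocking foot processes. Neighbouring foot processes are bridged by the slit diaphragm, the last layer of the filter that keeps protein in the blood. Podocytes sit on the basement membrane of the capillary tuft and have to be released from it before they can enter a suspension as separate cells. Nephrin (Nphs1) is a transmembrane protein of the slit diaphragm itself. Podocalyxin (Podxl) is the charged sialomucin of the podocyte surface, synaptopodin (Synpo) binds actin in the foot processes, Clic5 is a chloride intracellular channel family protein that sits with ezrin and podocalyxin, and Ptpro is a receptor tyrosine phosphatase of the apical membrane. Wt1 is a transcription factor that podocytes keep into adult life, and Cdkn1c encodes the cell cycle inhibitor p57. Podxl is known in vascular endothelium too.

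On GRCm38 the slit diaphragm gene Nphs1 lies at chr7:30458315-30487223 on the plus strand. The surface and cytoskeleton genes include Podxl at chr6:31519488-31563981 (minus), Clic5 at chr17:44188584-44280172 (plus) and Ptpro at chr6:137252319-137463233 (plus). Wt1 lies at chr2:105126529-105173616 (plus) and Cdkn1c at chr7:143458339-143461050 (minus). Nphs1 overlaps the antisense genes Nphs1os and Rps12-ps4, Cdkn1c overlaps the antisense gene Gm44732, and Ptpro overlaps Gm44258 on its own strand. The strand setting of the bulk counting is not given in the sources used here, so the bulk counts of these 3 genes may hold reads of their neighbours.

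The start regions of 3 of the 7 members, Nphs1, Clic5 and Ptpro, are shown from RefSeq promoter entries. These 3 genes were all called lower in warm against cold bulk suspensions below. Each region runs from 250 bases before to 50 bases after the RefSeq start on GRCm38.p6, on the plus strand, 5′ to 3′. The regions lie at chr7:30459808-30460107 (Nphs1), chr17:44188322-44188621 (Clic5) and chr6:137252049-137252348 (Ptpro). The Nphs1 window lies wholly within the gene span given above, which starts upstream of this RefSeq start. Capitals mark the motif GTGGGAG, a WT1-type sequence.
Nphs1: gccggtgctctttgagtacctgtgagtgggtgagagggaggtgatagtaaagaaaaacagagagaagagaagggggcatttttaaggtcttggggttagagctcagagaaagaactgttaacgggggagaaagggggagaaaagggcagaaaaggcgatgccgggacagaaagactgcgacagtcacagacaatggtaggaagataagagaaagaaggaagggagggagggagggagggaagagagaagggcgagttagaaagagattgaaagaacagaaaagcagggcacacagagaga
Clic5: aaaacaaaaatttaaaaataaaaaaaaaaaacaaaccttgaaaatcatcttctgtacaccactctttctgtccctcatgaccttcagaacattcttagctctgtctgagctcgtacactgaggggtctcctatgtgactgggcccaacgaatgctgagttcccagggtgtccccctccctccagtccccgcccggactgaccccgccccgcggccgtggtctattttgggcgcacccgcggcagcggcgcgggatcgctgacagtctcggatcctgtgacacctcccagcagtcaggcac
Ptpro: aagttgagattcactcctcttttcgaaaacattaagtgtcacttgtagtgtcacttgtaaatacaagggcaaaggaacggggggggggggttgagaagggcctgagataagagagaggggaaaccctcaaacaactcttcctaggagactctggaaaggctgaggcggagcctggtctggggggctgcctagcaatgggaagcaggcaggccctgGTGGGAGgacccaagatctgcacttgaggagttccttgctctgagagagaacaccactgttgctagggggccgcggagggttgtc
The letters GTGGGAG, searched on both strands, were in the Ptpro window only, starting at base 216, and 9.73% of 32851 RefSeq promoters of the same length hold them. TAATTA (an LMX1B-type sequence, in 5.29% of promoters) and CAGCTG (an E-box, in 16.3%) were searched on both strands and were in none of the 3 windows. The GC content was 49.7% for Nphs1, 54.3% for Clic5 and 54.7% for Ptpro, against a median of 52.7% over all promoters. These matches describe letters in the windows and no binding was measured.

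All 7 members had lower fitted levels in warm-dissociated than in cold-dissociated bulk suspensions of C57BL/6J kidneys, by a modest amount. The bulk libraries held 5969212 to 8184923 counts, and levels are given in counts-per-million (CPM) of a library. Nphs1 was at 84.2, 102 and 83.9 CPM in the 3 cold libraries and at 71.0, 68.4 and 66.8 CPM in the 3 warm libraries. Each warm library was thus below each cold library. The fitted log2 change of Nphs1 was -0.41 (SE 0.09, adjusted p = 0.010, quasi-likelihood test of edgeR), which leaves 75.2% of the cold level (95% interval 66.1 to 85.5%). In bulk libraries, fewer podocytes and less of these RNAs per podocyte cannot be told apart.

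Among the surface and cytoskeleton genes, Podxl was at 633, 735 and 533 CPM in the cold and 501, 439 and 514 CPM in the warm bulk libraries, with no overlap. Its log2 change was -0.41 (SE 0.10, adjusted p = 0.025), or 75.2% of the cold level (interval 64.7 to 87.5%). Clic5 was at 289.7, 297 and 312 CPM against 250.0, 235 and 236 CPM, without overlap. Its log2 change of -0.34 (SE 0.07) had an adjusted p of 0.0072. For Ptpro the cold libraries were at 69.5, 79.6 and 56.2 CPM and the warm ones at 51.8, 46.0 and 47.8 CPM, again without overlap. Ptpro had the lowest share left, 69.8% of the cold level (interval 59.5 to 81.9%, log2 change -0.52, adjusted p = 0.0094). Synpo was at 171, 215 and 167 CPM against 155, 151 and 156 CPM. The groups did not overlap, but the log2 change of -0.28 (SE 0.09) had an adjusted p of 0.073 and was not called.

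The nuclear proteins had the lowest counts in bulk. Wt1 was at 32.0, 40.0 and 24.5 CPM in the cold and 25.0, 21.6 and 22.2 CPM in the warm libraries, and here the groups overlapped, since the cold replicate 3 was below the warm replicate 1. The log2 change of Wt1 was -0.51 (SE 0.14, adjusted p = 0.0498), just under the threshold of 0.05. Cdkn1c was at 20.4, 27.0 and 20.3 CPM against 18.6, 16.1 and 19.3 CPM. Its log2 change of -0.34 (SE 0.13) had an adjusted p of 0.14.

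In all, 5 of the 7 members were called lower in warm bulk suspensions, where 3.26% of the 14102 genes tested were called lower and 5.42% higher. Warm libraries lay below every cold library for 6 of the 7, as for 10.8% of all genes tested. The median log2 change was -0.41 over the members and -0.01 over all genes. The summed level of the members was 1330 ± 152 CPM (SD, n = 3) in cold and 1037 ± 52.6 CPM in warm libraries. The number of calls was sensitive to single libraries. It was 3 without cold replicate 1, cold replicate 2, warm replicate 1 or warm replicate 2, each time with Podxl and Wt1 lost, and 4 without warm replicate 3, with Wt1 lost. Wt1 was not called with plain library totals either.

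**Figure D1:**
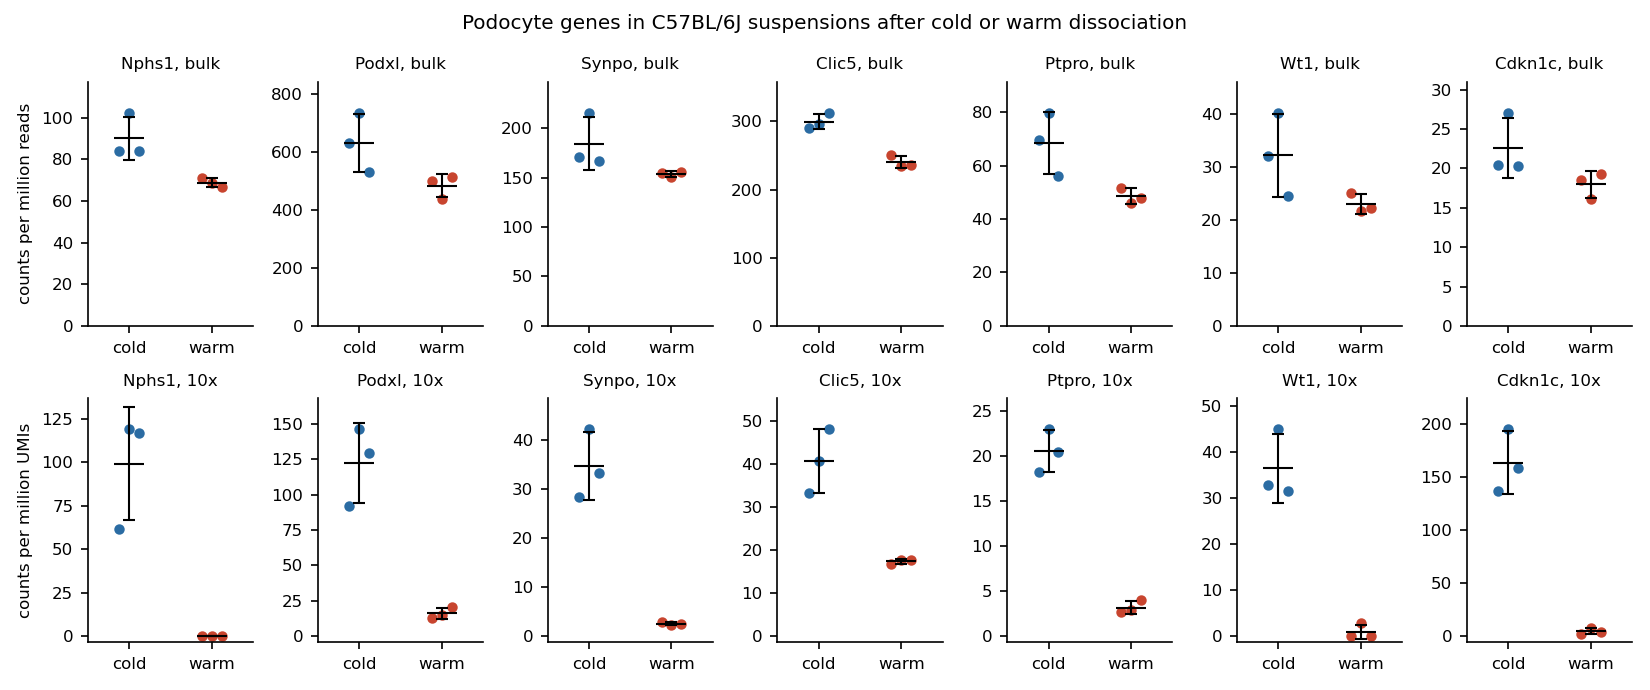
CPM of the 7 members (vertical axes) in cold (blue) and warm (red) C57BL/6J suspensions, with bulk libraries in the upper row and fresh 10x library sums in the lower row. Points are libraries, long bars the mean and short bars the SD of 3 libraries, and Nphs1 falls from 84.2, 102 and 83.9 to 71.0, 68.4 and 66.8 in bulk while all 3 warm 10x libraries list it at 0.

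Levels between genes can be compared only per length. As CPM per kilobase of exon (RPKM, calculated from the deposited counts), the cold bulk suspensions held Podxl at 115 ± 18.3 (SD, n = 3), Clic5 at 34.1 ± 1.28 and Synpo at 19.3 ± 2.82. Nphs1 followed at 13.6 ± 1.57, Cdkn1c at 11.1 ± 1.87, Ptpro at 10.2 ± 1.74 and Wt1 at 5.19 ± 1.26. The ranges of Nphs1 (12.7 to 15.4) and Cdkn1c (9.97 to 13.2) overlapped, as did those of Cdkn1c and Ptpro (8.36 to 11.8), so these neighbours in the order did not differ beyond their spread.

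The same suspensions gave a far larger difference in the fresh 10x libraries. Here the UMIs of all barcodes of a library were summed, over libraries of 5252363 to 14064480 UMIs. Nphs1 was at 62.0, 119 and 117 CPM in the 3 cold libraries (329, 960 and 908 UMIs) and was listed at 0 in all 3 warm libraries. The authors removed, library by library, genes seen in fewer than 10 barcodes, so that a 0 can hide up to 9 barcodes. In the cold libraries 337 of 11851 barcodes (2.84%) had a UMI of Nphs1, and in the warm libraries at most 0.240% of 11257 could have had one, a share at least 11.9-fold lower.

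The remaining members were lower in every warm 10x library than in every cold one. Podxl was at 91.7, 146 and 129 CPM against 12.9, 15.1 and 20.3 CPM, a log2 change of -2.91 (SE 0.23, adjusted p = 0.00015). Synpo was at 28.4, 42.2 and 33.3 CPM against 2.86, 2.20 and 2.54 CPM (log2 change -3.79, SE 0.21, adjusted p = 2.3e-05). Clic5, at 33.3, 40.6 and 48.1 CPM against 16.8, 17.7 and 17.8 CPM, had the smallest change of the members, -1.21 (SE 0.17, adjusted p = 0.0032). It kept 43.2% of the cold level (interval 33.0 to 56.6%), against 13.3% for Podxl and 7.22% for Synpo.

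Ptpro was at 18.3, 23.0 and 20.5 CPM in cold and 2.67, 2.92 and 3.97 CPM in warm libraries, 15.6% of the cold level (log2 change -2.68, SE 0.19, adjusted p = 7.4e-05). Cdkn1c fell the most among the members with a level above 0 in each warm library. It was at 137, 195 and 159 CPM against 2.28, 8.11 and 3.97 CPM, 3.42% of the cold level (log2 change -4.87, SE 0.35, adjusted p = 8.3e-05). Wt1 was at 32.8, 45.0 and 31.5 CPM in cold libraries, and 2 of the warm libraries listed it at 0 while the other held 2.77 CPM. Its log2 change was -4.62 (SE 0.56, adjusted p = 0.0013), and it was not called by DESeq2.

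Thus the 5 members seen in every warm library were called lower in the warm 10x sums, where 7.07% of 12061 genes were called lower and 7.86% higher, and these 5 did not overlap between the groups, as for 21.2% of all genes. Nphs1 and Wt1 were called too, but with 3 and 2 warm libraries at 0 they entered the test only through the cold libraries, where they are high, so their calls carry no weight. The median log2 change was -3.79 over all members, Nphs1 and Wt1 among them, and -0.03 over all genes. For the 5 members seen in every warm library the changes ran from -1.21 to -4.87, with Podxl (-2.91) in the middle. The summed member level, with members listed at 0 taken as 0, was 518 ± 106 CPM in cold and 45.0 ± 6.45 CPM in warm libraries. The calls held when any one library was left out and when zeros were set to 9 counts, though 9 hidden barcodes could hold more UMIs than that.

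Whether the 10x change exceeded the bulk change was tested as an interaction of assay and dissociation over the 12 libraries. The paper states that both assays used the same dissociated samples. The 12 libraries are thus not independent, and the fit did not pair them. The 5 members seen in every warm 10x library were called lower in this difference (10x minus bulk), against 5.78% of 12932 genes. The difference ran from -0.88 (SE 0.21, adjusted p = 0.016) for Clic5 to -4.51 (SE 0.41) for Cdkn1c on the log2 scale. Nphs1 and Wt1 were called too, but 3 and 2 of their warm 10x libraries are at 0, so their calls carry no weight, and the fitted number of Nphs1 depends on the prior count. Principal cell markers (8 of 8, median -1.75) and intercalated cell markers (8 of 8, median -1.92) were called lower in this difference as well. The bulk libraries count reads of a whole suspension and the 10x libraries count UMIs of barcodes that passed the authors' filters, so the assays also differ in what they sample.

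**Figure D2:**
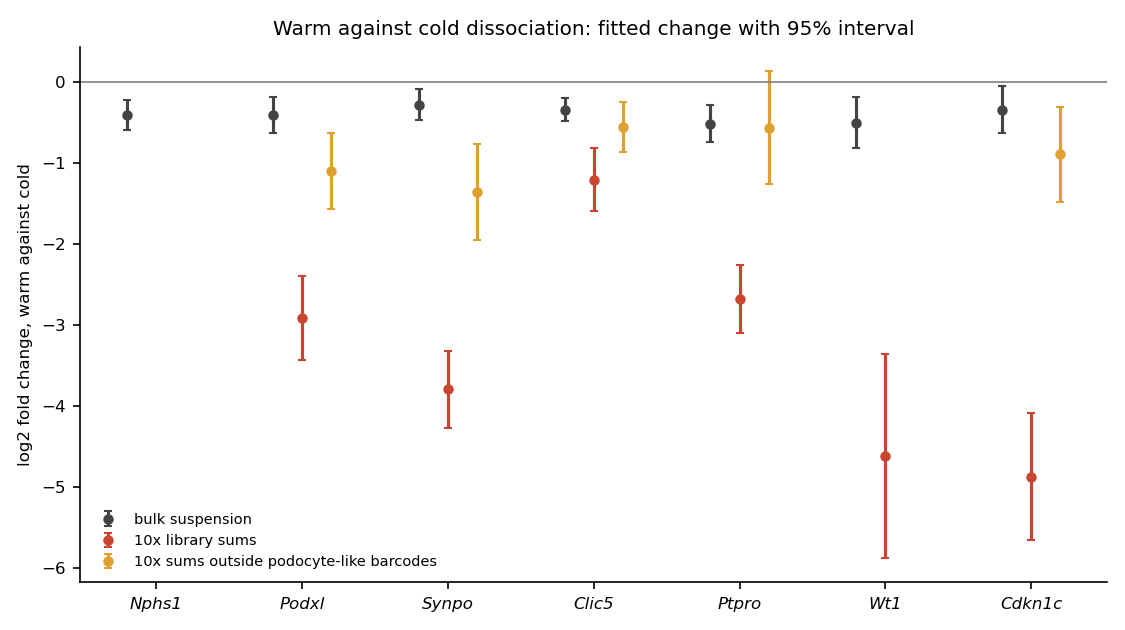
Fitted log2 fold change of each member, warm against cold, with 95% intervals, in bulk suspensions (grey), fresh 10x library sums (red) and 10x sums without the podocyte-like barcodes (orange). The bulk values lie between -0.28 and -0.52, and the 10x sums between -1.21 for Clic5 and -4.87 for Cdkn1c. Nphs1 in 10x is left out because all warm libraries list it at 0, and Nphs1 and Wt1 were not tested outside podocyte-like barcodes.

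Podocyte barcodes were then counted without use of the 7 genes. Barcodes were clustered on other genes and the cluster was named from 20 podocyte markers that exclude the members, among them Magi2, Thsd7a and Tcf21. In the C57BL/6J cells 15 of these markers passed in a single cluster of 698 barcodes, whose leading gene was Tcf21, a transcription factor of podocytes, and it is called podocyte-like. Fresh cold libraries held 54, 148 and 150 podocyte-like barcodes (2.29, 3.62 and 2.77% of the library), and the warm libraries held 0, 5 and 1. Pooled over libraries, these were 352 of 11851 (2.97%, 95% Wilson interval 2.68 to 3.29%) and 6 of 11257 (0.0533%, interval 0.0244 to 0.116%). The intervals cover counting error only, and the cold libraries spread more widely than theirs. The log2 change in number was -5.71 (SE 0.43, adjusted p = 7.2e-07 over 14 classes, quasi-likelihood test of edgeR). The exact two-sided permutation test of the shares gave p = 0.1, the smallest that 3 against 3 libraries allow. Other classes changed in number too. Cold and warm fresh libraries held 147 and 27 mesangial and mural, 838 and 524 endothelial, and 768 and 639 macrophage or monocyte barcodes. Descending loop barcodes were 102 and 83, and proximal tubule barcodes went the other way, from 4578 to 5030. These counts are given without tests.

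As a second count that uses the members themselves, 327 cold and 19 warm barcodes had UMIs of at least 3 of the 7 genes. Of these, 317 of the cold and 4 of the warm barcodes were podocyte-like. On this count the log2 change was -3.97. Nphs1 is at 0 in all 3 warm libraries and Wt1 in 2 of them, so a warm barcode could reach 3 genes only among 5 or 6, and 12, 50 and 22 barcodes of the warm libraries had exactly 2. Over all barcodes the median depth overlapped between conditions, at 1192 to 1525 UMIs for cold and 1243 to 1542 UMIs for warm libraries. Warm podocyte-like barcodes were shallower, with medians of 1091 and 609 UMIs in the 2 libraries that held any, against 2165 to 2592 in the cold libraries.

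**Figure D3:**
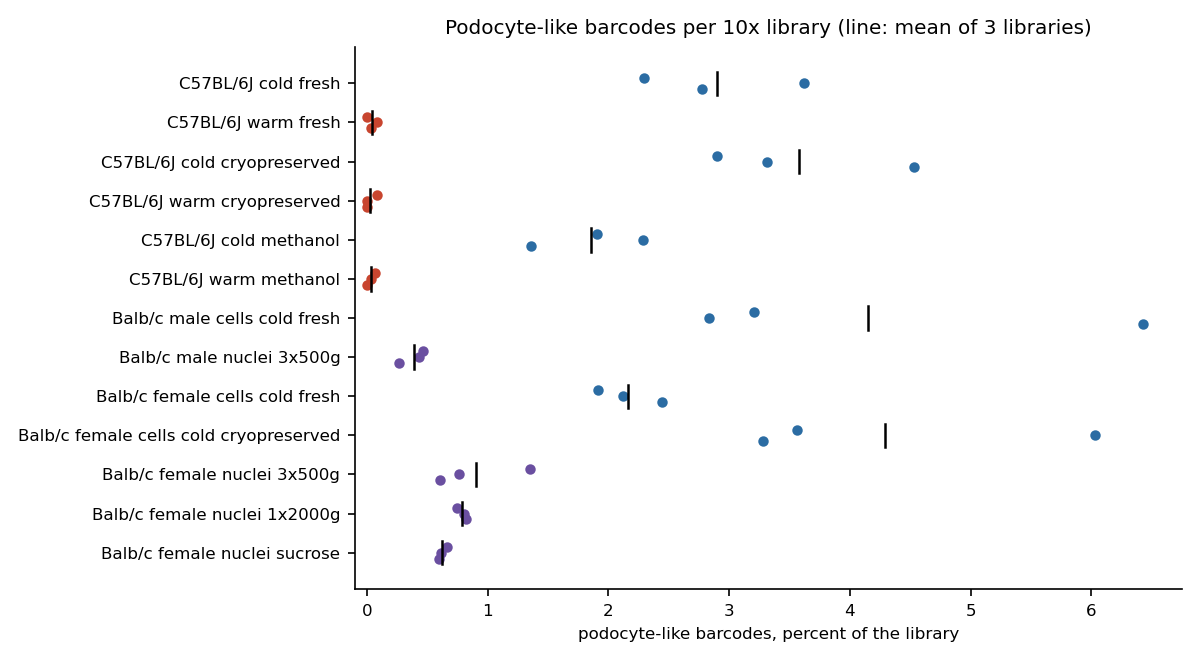
Podocyte-like barcodes as a percent of each 10x library (horizontal axis) in the 13 conditions. Points are libraries and the black line is the mean of 3. Warm C57BL/6J libraries lie at or near 0 in the fresh, cryopreserved and methanol-fixed conditions, while cold fresh libraries lie at 2.29 to 3.62%.

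The members differed in how far they marked podocytes among the cold fresh barcodes. Podocyte-like barcodes held 98.6% of all UMIs of Nphs1, 96.1% of Cdkn1c and 95.9% of Wt1. They held 84.9% of Synpo, 80.5% of Ptpro, 74.4% of Podxl and only 40.9% of Clic5. A UMI of Nphs1 was seen in 88.1% of podocyte-like barcodes and in 0.218% of proximal tubule barcodes, which should lack it. Proximal tubule barcodes had medians of 1535.5 to 2156 UMIs per library. When barcodes were thinned to 500 UMIs these shares were 73.2% and 0.0667%.

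Several members were also found in endothelial barcodes, Podxl with the most UMIs. Of its 2670 cold UMIs, 540 lay in endothelial barcodes, of which 40.9% had a UMI (17.7% after thinning to 500 UMIs), against 1.20% of proximal tubule barcodes (0.200% after thinning). In the warm libraries 364 of 408 UMIs of Podxl were endothelial and 17 were podocyte-like. The endothelial level of Podxl was 438 to 517 CPM in the cold and 310 to 423 CPM in the warm libraries, so the ranges did not overlap, which was not tested.

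Ptpro was also found in macrophage or monocyte barcodes, with 46 of 441 UMIs in the cold and 58 of 80 in the warm libraries. Its level there was 29.5 to 74.1 CPM in cold and 46.0 to 112 CPM in warm libraries, with overlap. Clic5 was spread over proximal tubule (273 cold and 238 warm UMIs), endothelial (156 and 109) and unnamed barcodes. After thinning to 500 UMIs, Clic5 was seen in 5.80% of endothelial and 1.29% of proximal tubule barcodes. Its proximal tubule level was 22.9 to 33.9 CPM in cold and 14.5 to 19.3 CPM in warm libraries. Wt1 had 14 cold and 16 warm UMIs in descending loop barcodes, and Cdkn1c had 37 cold and 58 warm UMIs in endothelial barcodes. Cdkn1c stood at 29.3 to 39.4 CPM in cold and 53.2 to 57.8 CPM in warm endothelial barcodes.

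**Figure D4:**
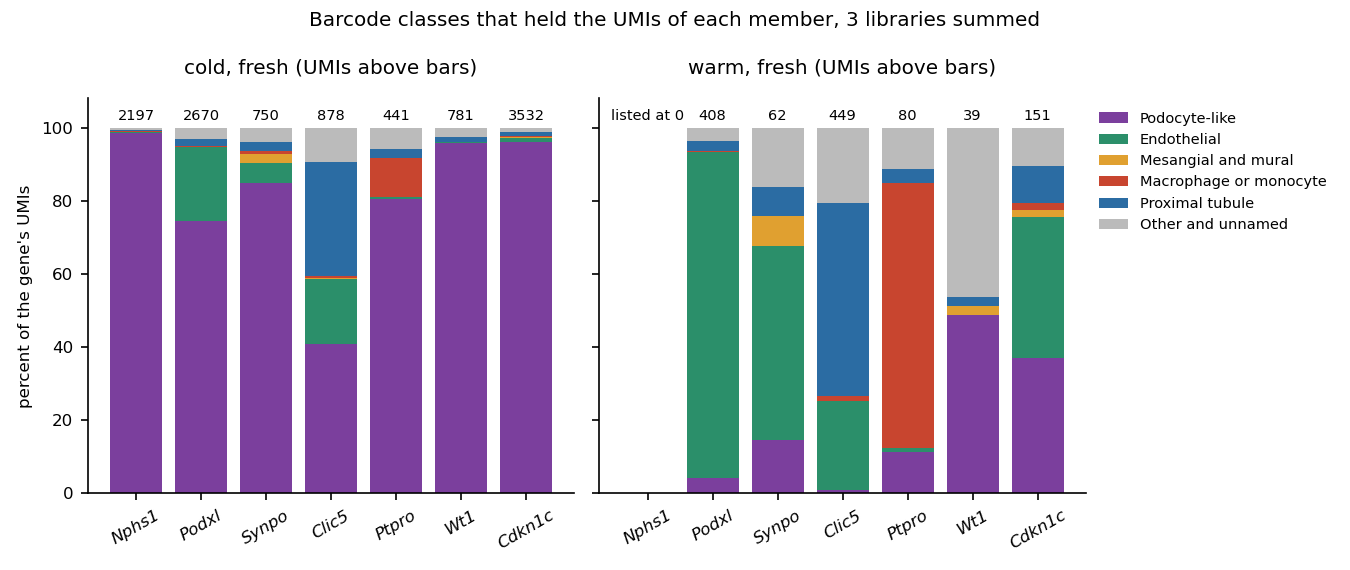
Share of each member's UMIs (vertical axis, percent) by barcode class, with 3 fresh libraries summed, cold at left and warm at right. Numbers above the bars are UMIs. Podocyte-like barcodes (purple) hold 98.6% of cold Nphs1 UMIs, while the warm UMIs of Podxl are mostly endothelial (green) and those of Ptpro mostly of macrophages or monocytes (red).

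With podocyte-like barcodes taken out, 5 of the 7 members had enough UMIs to be tested, and Nphs1 and Wt1 did not. Podxl (log2 change -1.10, SE 0.21, adjusted p = 0.014), Synpo (-1.36, SE 0.26, adjusted p = 0.016) and Clic5 (-0.56, SE 0.14, adjusted p = 0.033) were called lower. For Cdkn1c the change was -0.90 (SE 0.26, adjusted p = 0.054) and for Ptpro -0.57 (SE 0.31, adjusted p = 0.25). That is 3 of 5, against 5.41% of 11954 genes called lower. This count was 0 without cold replicate 2 or cold replicate 3, 1 without warm replicate 1 and 1 with DESeq2, which gave Synpo no adjusted p. Among the same barcodes 7 of 11 mesangial and mural, 3 of 12 endothelial and 5 of 8 macrophage or monocyte markers were called lower too, and their part in the members' result was not tested.

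Other podocyte genes were counted in both assays. Of the 20 podocyte markers used to name the cluster, 3 were called lower in warm bulk suspensions, with a median of -0.20. Among the 3 were the semaphorin Sema3g (log2 change -0.36, adjusted p = 0.021) and Ildr2 (-0.41, adjusted p = 0.0062). In the 10x sums 15 of the 20 were called lower, with a median of -1.67.

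Of 25 further genes of the slit diaphragm and foot process, 23 were tested in bulk, with a median change of -0.06. Of these, 3 were lower, among them Synpo2 (-1.65, adjusted p = 0.0012) and the nephrin relative Kirrel (-0.41, adjusted p = 0.020), and the laminin chain Lama5 was higher (0.29, adjusted p = 0.044). In the 10x sums 13 of 20 tested were lower, with a median of -0.76. Some genes, such as Magi2 and Arhgap24, stand on both lists.

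Markers of other kidney cells moved too, and their part in the members' results was not tested. In bulk 2 of 12 endothelial markers were lower (Plvap -0.39 and Flt1 -0.37), with a median of -0.11. Of 12 mesangial and mural markers 5 were lower and 3 higher. The largest changes were in the smooth muscle genes Acta2 (-1.73), Myh11 (-1.64) and Tagln (-1.53), then Rgs5 (-1.05) and Gata3 (0.78). In the 10x sums 2 of 12 endothelial and 6 of 11 mesangial and mural markers were lower.

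Tubule and immune markers were counted as well. In warm bulk suspensions 7 of 8 principal cell markers (median 1.25), 7 of 8 intercalated cell markers (0.92), 5 of 6 connecting tubule markers (0.85), 5 of 6 distal convoluted tubule markers (0.58), 5 of 8 descending loop markers (0.67) and 5 of 8 ascending loop markers (0.42) were called higher. Lower were 3 of 12 proximal tubule markers (-0.19), 2 of 8 macrophage or monocyte markers (-0.37) and 5 of 6 B cell markers (-1.18). In the 10x sums 5 of 12 proximal tubule and 3 of 8 ascending loop markers were higher, and 5 of 8 macrophage or monocyte, 3 of 8 intercalated and 3 of 6 B cell markers were lower. CPM is a share of a library, so a member's level depends on what else the library holds.

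Warm dissociation gave the same direction in stored cells. Podocyte-like barcodes were 125 of 3519 (3.55%) in cold and 1 of 3483 (0.0287%) in warm cryopreserved libraries. After methanol they were 212 of 11627 (1.82%) and 2 of 5545 (0.0361%). Nphs1 was not listed in the 6 warm stored libraries and could not be tested there. The other 6 members were called lower in warm cryopreserved sums (2.68% of 10086 genes were called lower) and in warm methanol-fixed sums (0.83% of 9996 genes). Members at 0 in a warm library, which were Wt1 after cryopreservation and all but Clic5 after methanol, entered the test only through the cold libraries, where they are high, so their calls carry no weight in these counts.

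Among cryopreserved cells the changes of members with a level above 0 ran from -0.91 for Podxl (53.2% of cold, adjusted p = 0.024) to -3.97 for Cdkn1c (6.37% of cold). Synpo (-2.06) and Ptpro (-2.11) lay between. Podxl stood at 161, 188 and 225 CPM in cold and 81.8, 107 and 98.2 CPM in warm cryopreserved libraries. Wt1 was at 51.8, 41.9 and 60.4 CPM in cold libraries and listed at 0 in the 3 warm ones. The calls of Podxl and Clic5 (log2 change -1.03) were lost without cold replicate 2 or 3 or any one of the 3 warm libraries. In the same comparison 8 of 8 ascending loop markers were called higher (median 2.85), the mesangial and mural markers had a median of -1.38 and the endothelial markers one of 0.10, and their part in the members' result was not tested.

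In methanol-fixed cells Clic5 fell by 1.03 (adjusted p = 0.017) and Podxl by 2.93 (adjusted p = 0.0032) on the log2 scale, and Cdkn1c had a change of -5.07. Synpo, Ptpro and Wt1 were listed at 0 in all 3 warm libraries, and Podxl and Cdkn1c in 1 of them. The share of barcodes with a UMI of Wt1 was 1.84% in the cold libraries and at most 0.487% in the warm ones, at least 3.78-fold lower. Without cold methanol replicate 2 the number of members called was 3, with Synpo, Ptpro and Clic5 lost, so none of the calls left carries weight. Without cold methanol replicate 1 it was 4, with Synpo and Ptpro lost, the call of Synpo was lost without cold methanol replicate 3, and that of Clic5 without warm methanol replicate 1 or 3.

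Storage of cold-dissociated cells left members at different levels. Both storage comparisons use the same 3 cold fresh libraries as the warm comparison. After cryopreservation 1 of 7 members was called, Ptpro, at 56.7, 42.7 and 62.0 CPM against 18.3, 23.0 and 20.5 CPM in fresh sums (log2 change 0.91, SE 0.18, adjusted p = 0.0036), where 21.8% of 11392 genes were called higher. The others had changes of 0.51 for Cdkn1c (adjusted p = 0.059), 0.25 for Clic5, 0.24 for Synpo, 0.18 for Podxl, 0.11 for Nphs1 and 0.02 for Wt1. The median change was 0.24 over the members and -0.13 over all genes. Of the 20 other podocyte markers 5 were lower and 2 higher, with a median of -0.09. With plain library totals the median over all genes moved to 0.33, and 5 members were then called higher. Without cryopreserved replicate 2 the number was 2, with Cdkn1c added. In the same sums 12 of 12 proximal tubule markers (median -7.76) and 6 of 7 ascending loop markers (-2.00) were called lower, while 12 of 12 endothelial (1.54) and 8 of 8 macrophage or monocyte markers (1.82) were called higher. Podocyte-like barcodes held 355 of 441 Ptpro UMIs in fresh and 161 of 334 in cryopreserved libraries. Within these barcodes Ptpro was at 394 to 542 CPM in fresh and 465 to 518 CPM in cryopreserved libraries, with overlap. Ptpro UMIs were also found in macrophage or monocyte barcodes. The part of these shifts in the change of Ptpro and in the other members' levels was not tested. The podocyte-like share was 2.90 to 4.53% in cryopreserved and 2.29 to 3.62% in fresh libraries, with an exact two-sided permutation p of 0.4.

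Methanol fixation was different for Nphs1. It was at 13.7, 12.0 and 8.00 CPM in methanol-fixed sums against 62.0, 119 and 117 CPM in fresh ones. The log2 change was -3.25 (SE 0.30, adjusted p = 0.00066), or 10.5% of the fresh level (interval 6.52 to 16.8%). Synpo (-1.35, adjusted p = 0.0052), Podxl (-1.03, adjusted p = 0.0074) and Ptpro (-0.66, adjusted p = 0.033) were called lower too. In all 4 of 7 were lower, against 13.6% of 11910 genes. The podocyte-like share was 1.36 to 2.29% in methanol-fixed and 2.29 to 3.62% in fresh libraries (exact two-sided permutation p = 0.1, the smallest possible), and its part in the change of the sums was not tested. Wt1 had a change of -0.15 with an interval of -0.66 to 0.36. The call of Ptpro was lost without fresh replicate 2 or 3, or methanol replicate 1 or 3. With the number in the barcode headers as a block, Clic5 (-0.43) and Cdkn1c (-0.45) were called as well. Of the 20 other podocyte markers 7 were lower, with a median of -0.85. Cdkn1c (-0.45, adjusted p = 0.053) and Clic5 (-0.41, adjusted p = 0.13) were not called without the block. Of 12 endothelial markers 5 were lower, with a median of -0.60.

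Levels were also taken within podocyte-like barcodes, where Nphs1 stood at 2398 to 2857 CPM in the 3 fresh libraries, 2489 to 3221 CPM in the cryopreserved and 320.0 to 487 CPM in the methanol-fixed libraries. The fresh and cryopreserved ranges overlapped, and the methanol-fixed libraries lay below both. A Nphs1 UMI was found in 70.4 to 92.6% of fresh and 40.2 to 58.3% of methanol-fixed podocyte-like barcodes.

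Synpo was at 698 to 913 CPM in fresh and 229 to 392 CPM in methanol-fixed podocyte-like barcodes. Podxl was at 2313 to 2613 CPM in fresh, 1577 to 1873 CPM in cryopreserved and 1375 to 1591 CPM in methanol-fixed ones. Clic5 was at 374 to 534 CPM in fresh, 460.4 to 678 CPM in cryopreserved and 201 to 349 CPM in methanol-fixed barcodes, and Ptpro at 394 to 542, 465 to 518 and 327 to 377 CPM. Wt1 (758 to 1240 CPM fresh, 982 to 1218 CPM methanol) and Cdkn1c (3782 to 5167 CPM fresh, 3663 to 4588 CPM methanol) overlapped. Median UMIs of these barcodes were 2165 to 2592 in fresh and 1855 to 2028 in methanol-fixed libraries. These levels within barcodes are descriptions and were not tested.

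**Figure D5:**
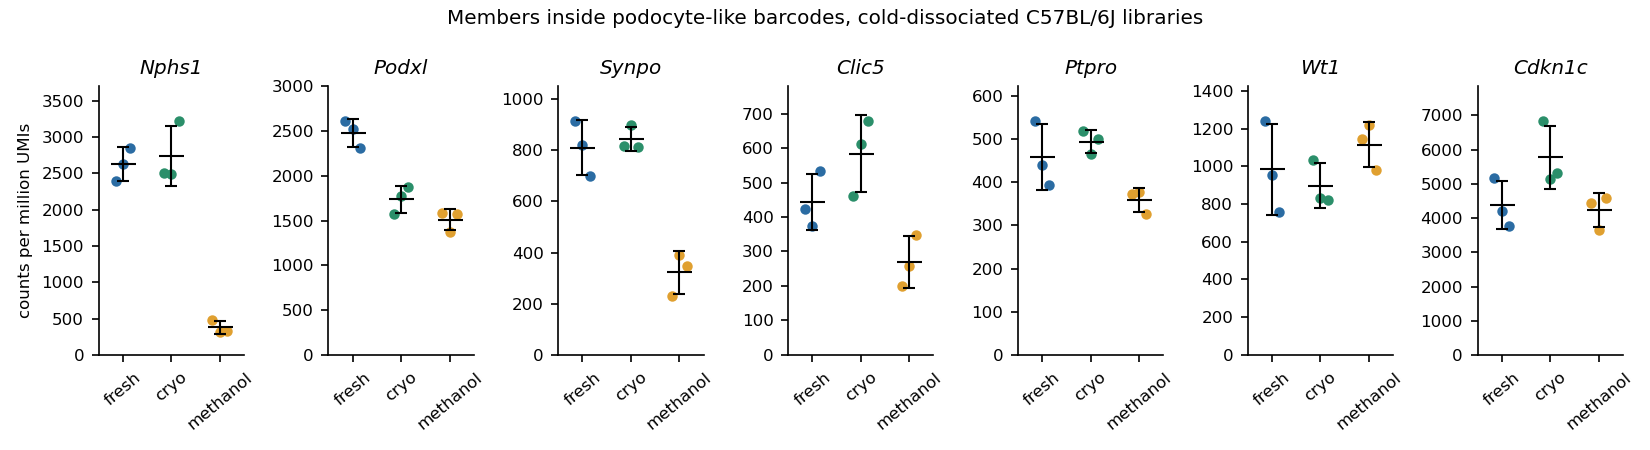
CPM of each member within podocyte-like barcodes of cold-dissociated C57BL/6J libraries (vertical axes) for fresh (blue), cryopreserved (green) and methanol-fixed (orange) cells. Points are libraries, long bars the mean and short bars the SD of 3. Nphs1 lies at 320.0 to 487 after methanol against 2398 to 2857 in fresh cells, while Wt1 and Cdkn1c overlap between these groups.

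The female Balb/c mice allowed a comparison of the cold suspension with undissociated kidney in bulk. Here no member was called lower after cold dissociation. Nphs1 was at 38.5, 42.7 and 50.1 CPM in intact kidney and 57.8, 54.1 and 84.2 CPM in suspension, without overlap. Its log2 change was 0.57 (SE 0.16, adjusted p = 0.031). Wt1 was at 13.4, 15.8 and 15.9 CPM against 19.6, 19.7 and 27.0 CPM (log2 change 0.54, adjusted p = 0.018).

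Ptpro (0.43, adjusted p = 0.0098) and Cdkn1c (0.31, adjusted p = 0.0096) were also higher in the suspension. Podxl (0.35, adjusted p = 0.061) and Synpo (0.57, adjusted p = 0.059) were not called. Clic5 was not called, at 184, 186 and 182 CPM in intact kidney and 175, 183 and 206 CPM in suspension (0.02, interval -0.13 to 0.16). So 4 of 7 were higher, against 7.91% of 16538 genes, and 6 of 7 lay above every intact library, as for 17.9% of genes. The number called was 2 without intact replicate 1, with Nphs1 and Wt1 lost, and the call of Nphs1 was lost without intact replicate 2. In the same comparison 10 of 12 endothelial markers and 5 of the 20 other podocyte markers were lower, where 12.1% of all genes were, and 3 of the latter were higher. Called higher were 7 of 8 macrophage or monocyte (median 1.10), 6 of 7 T or NK cell (1.47), 5 of 6 B cell (1.90) and 6 of 6 connecting tubule markers (0.59), and 7 of 8 fibroblast markers (-1.28) were lower. The part of these in the members' result was not tested.

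In male Balb/c mice the bulk libraries held intact kidney only. The members summed to 496 ± 61.2 CPM there (n = 3), against 749 ± 55.7 CPM in the female intact kidneys. Ribosomal RNA depletion was used for the former and poly(A) selection for the latter, so these levels cannot be compared between the mice. Nphs1 was at 25.3, 23.2 and 21.5 CPM in the male intact kidneys.

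In the female 10x libraries the podocyte-like share was 1.91 to 2.45% in fresh cells and 3.28 to 6.03% after cryopreservation (exact two-sided permutation p = 0.1, the smallest possible). A cluster led by Wnt16, in which the mean fold of the podocyte markers was negative, was kept out of the class and held 1.01% of fresh and 4.89% of cryopreserved barcodes. That rule was set after the clusters were seen. Of the members Cdkn1c (0.47, adjusted p = 0.0023), Podxl (0.82, adjusted p = 0.013) and Synpo (0.77, adjusted p = 0.044) were called higher in cryopreserved sums. Changes not called were 0.57 for Wt1, 0.40 for Ptpro, 0.23 for Clic5 and -0.06 for Nphs1. Of the 7 members 3 were thus called, where 28.9% of 11947 genes were called higher. With plain library totals the median over all genes moved from 0.02 to 0.38, and 6 members were called. Here 11 of 11 proximal tubule markers (median -2.87) were called lower and 12 of 12 endothelial (1.66) and 12 of 12 mesangial and mural markers (1.63) higher, and their part in the members' result was not tested. The call of Synpo was lost without fresh replicate 1 or 2 or cryopreserved replicate 1 or 2.

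Nuclei held fewer podocyte-like barcodes than cells. Their share was 0.263 to 0.465% in male nuclei against 2.83 to 6.43% in male cells, and 0.602 to 1.35% in female nuclei washed at 3x500g against 1.91 to 2.45% in female cells. Both comparisons gave an exact two-sided permutation p of 0.1, the smallest possible. The 6.43% was male cell replicate 3, where the median depth was 343 UMIs per barcode, against 538 and 688 in the other male cell libraries. That replicate held 230 of the 397 podocyte-like male cell barcodes. In the other female nuclei the share was 0.745 to 0.823% (1x2000g) and 0.595 to 0.664% (sucrose). The same rule kept clusters led by Wnt16 (1.29, 1.05 and 0.990% of 3x500g, 1x2000g and sucrose nuclei) and by Ahrr (0.198, 0.258 and 0.330%) out of the class. Intronic reads were counted for nuclei and not for cells, so differences in level between them are differences between 2 measures. The authors also removed nuclei, and not cells, below a minimum number of UMIs. Median UMIs of podocyte-like barcodes were 541.5 to 662 in male nuclei and 361 to 1022.5 in male cells. They were 2543 to 3072 in female 3x500g nuclei and 3306.5 to 5113 in female cells. The part of this filter in the shares was not tested.

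All 7 members were lower in male nuclei sums (27.6% of 14027 genes were), at -0.67 for Clic5, -2.65 for Ptpro, -2.87 for Podxl, -2.95 for Synpo, -3.65 for Nphs1, -3.94 for Wt1 and -5.98 for Cdkn1c, where the median over all genes was 0.84. In female 3x500g nuclei sums 6 of 7 were lower (41.0% of 13762 genes were), at -0.78 for Clic5 (-0.34 with plain library totals of the genes compared), -1.03 for Wt1, -1.49 for Synpo, -1.56 for Nphs1, -2.20 for Podxl and -5.91 for Cdkn1c. Over all genes each library lists, the CPM of Clic5 ran the other way, at 60.5 to 61.6 in nuclei and 46.3 to 63.3 in cells, so its direction depends on the denominator. Ptpro was not called in the female sums (-0.04, interval -0.71 to 0.62). Over all genes each library lists, Ptpro was at 29.7 to 63.5 CPM in nuclei and 17.3 to 29.5 CPM in cells, without overlap. On the same measure Wt1 overlapped, at 9.07 to 22.0 CPM in nuclei and 11.4 to 20.3 CPM in cells. The paper gives removal of mitochondrial genes for nuclei and not for cells, so the library totals can also differ in what they hold. The median over all female genes was 0.10, and 0.54 with plain library totals, under which Wt1 was not called. Other lists moved in both directions. Of the 20 other podocyte markers 9 were lower and 7 higher in male nuclei (median -0.32) and 8 lower and 10 higher in female nuclei (0.36). Of the slit diaphragm and foot process genes 7 were lower and 12 higher (0.41), and 8 lower and 13 higher (0.57). Macrophage or monocyte markers were lower for 6 of 8 in male (median -4.46) and 7 of 8 in female nuclei (-6.22), and principal cell markers for 6 of 8 (-1.92) and 5 of 8 (-2.65). Of 12 mesangial and mural markers 5 were lower and 4 higher in male (-0.58) and 8 lower and 3 higher in female nuclei (-2.14), and of 12 endothelial markers 2 lower and 3 higher (0.04) and 6 lower and 3 higher (-0.44). Their part in the members' results was not tested. The call of Wt1 was also lost without cell replicate 3 or nuclei replicate 2 or 3.

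Within podocyte-like barcodes the members did not keep the same order in nuclei. Cdkn1c was at 3432 to 5137 CPM in female cells and at 153 to 359, 277 to 568 and 529 to 612 CPM in 3x500g, 1x2000g and sucrose nuclei, and at 1931 to 4872 CPM in male cells and 141 to 639 CPM in nuclei. Ptpro went the other way, from 719 to 878 CPM in female cells to 5306 to 5603, 4767 to 5682 and 4534 to 5005 CPM in these 3 kinds of nuclei, and from 894 to 1237 CPM in male cells to 2752 to 2889 CPM in nuclei.

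The summed level of the 7 members in the 10x libraries is given within each set of mice. In C57BL/6J cells it was 891 ± 161 CPM (SD, n = 3) after cold dissociation and cryopreservation, 518 ± 106 CPM in cold fresh and 289.8 ± 40.4 CPM in cold methanol-fixed cells. The warm counterparts were at 169.7 ± 16.8, 45.0 ± 6.45 and 24.8 ± 10.8 CPM, each below its cold counterpart in every library. Levels in warm stored cells leave out Nphs1, which those libraries did not list. Members listed at 0 were taken as 0, so the warm sums lack any UMIs that the authors' filter removed and may be too low. After methanol these were Synpo, Ptpro and Wt1 in all 3 warm libraries, and Podxl and Cdkn1c in 1 of them. The sum of warm methanol-fixed replicate 3, 13.2 CPM, was thus that of Clic5 alone. Wt1 was at 0 in all 3 warm cryopreserved libraries. Among warm fresh libraries Nphs1 was at 0 in 3 and Wt1 in 2. Male Balb/c cells stood at 777 ± 89.5 CPM and male nuclei at 119 ± 19.9 CPM. Female cells stood at 683 ± 133 CPM after cryopreservation and 366 ± 83.9 CPM fresh, with no overlap, and the female nuclei at 209 ± 46.3, 215 ± 17.3 and 209 ± 6.88 CPM for 3x500g, 1x2000g and sucrose, with overlapping ranges.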

How the data were processed

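Bulk RNA-seq and 10x libraries of mouse kidney were analysed, 3 per condition. For the bulk libraries the authors aligned reads with STAR 2.6.1a to GRCm38 and counted them per gene with featureCounts, and the deposited values are raw read counts. For the 10x libraries they used Cell Ranger 2.1.1 (mm10) and EmptyDrops, and kept barcodes with 200 to 3000 genes and genes in at least 10 barcodes. The deposited values are raw UMI counts by gene and barcode. Some genes are still seen in only 1 to 9 of the deposited barcodes, such as 181 genes in warm fresh replicate 1. For nuclei the counts take in introns, for cells exons alone. Nuclei also had to reach a minimum number of UMIs, and their mitochondrial genes were removed. PCR duplicates can remain in bulk counts, so their depth covers counting error only.

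Bulk counts and library sums entered edgeR's quasi-likelihood test (edgeR 4.0.16, R 4.3.3) with TMM factors, filterByExpr and Benjamini-Hochberg adjustment over all genes tested, at 0.05. The SE is the size of the log2 change divided by the square root of F. CPM was taken from library totals. RPKM used the summed exon length of a GENCODE annotation of GRCm38. Barcodes were clustered without the members in 5 sets (Leiden, resolution 2, 2000 variable genes, 30 components, 20 neighbours). Naming a cluster took 3 or more markers with a share of 0.1 and a fold of 1.5. Doublets were marked at 0.8% per 1000 barcodes and kept. 50 of 698 podocyte-like C57BL/6J barcodes carried a sequence that was also seen in another library of that set. Intervals of shares are pooled over libraries. P-values measure the spread between these libraries.

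The members and lists were chosen with earlier results of these data known. The rule for named genes took all 7 members in each comparison and, of 4 lists (other podocyte, slit diaphragm, endothelial, mesangial and mural), up to 5 genes with the largest change among those called in warm against cold bulk. Some list genes are not reported here by name. RLE factors, library totals, DESeq2 1.42.0, the exact test of edgeR, limma voom (3.58.1), no filter, another resolution, removal of doublets and leaving out each library were alternatives. The replicate block, zeros set to 9 and the rule that a named cluster needs a positive mean marker fold were added after the data were seen. The tests were checked on simulated data.

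The labels give bulk and Balb/c libraries no shared replicate numbers. C57BL/6J 10x barcode headers carry a number of 20, 21 or 22, which the labels do not explain. Each number recurs in the cold and warm libraries of the fresh, cryopreserved and methanol-fixed groups. The paper states that stored cells were aliquots of the suspensions, and the main fits of stored against fresh cells did not pair them. Cold methanol-fixed and fresh libraries of the same number deviated together (correlations over genes 0.240, 0.221 and 0.256), while in each other C57BL/6J comparison at least 1 pair was at 0.1 or below, so the block stands beside the methanol result only. Fits with 2 libraries in a group assume that they vary like the others.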

Additional observations from a re-analysis of the deposited data

Results flagged for a closer look

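The change from cold to warm dissociation differed between the 10x sums and the bulk libraries for the members, by the interaction of assay and dissociation (edgeR's quasi-likelihood test, adjusted over 12932 genes, of which 5.78% were called in the same direction). The difference, 10x minus bulk on the log2 scale, was -0.88 for Clic5, -2.17 for Ptpro, -2.52 for Podxl, -3.52 for Synpo, -4.08 for Wt1 and -4.51 for Cdkn1c. For Nphs1 it was fitted at -12.80, a number that rests on 3 warm libraries listed at 0 and is no bound, and 2 warm libraries list Wt1 at 0. The median over all genes was -0.05. The endothelial markers, measured in the same libraries, had a median difference of -0.20, with 2 of 12 called lower and 1 higher, and the mesangial and mural markers one of -1.44, with 6 of 12 lower. The principal cell markers had a median of -1.75 and the intercalated cell markers one of -1.92, with 8 of 8 lower in each, sizes near that of Ptpro. Their part in the difference of the members was not tested.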

How the results depend on the processing

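No refit turned a called direction, although the CPM of Clic5 over all listed genes ran against its fit in female nuclei. Of 1007 refits of single members, 911 kept their direction and side of the threshold, 59 lost a call and 37 gained one. The number of members called outside podocyte-like barcodes was 1 with DESeq2, which gave Synpo no adjusted p (3 otherwise). In cold cryopreserved against fresh sums it was 5 with library totals and 2 with DESeq2, the exact test of edgeR and zeros set to 9 (1 otherwise), and in the female cryopreserved sums 6 with library totals (3 otherwise). With each library left out in turn the number was 3 to 5 in bulk, 0 to 4 outside podocyte-like barcodes, 4 to 6 and 3 to 6 in warm against cold cryopreserved and methanol-fixed sums, 1 to 2 and 3 to 6 in cryopreserved and methanol-fixed against fresh sums, 2 to 6 in female suspension against intact kidney, 2 to 4 in female cryopreserved cells and 5 to 6 in female nuclei. It was 7 throughout in male nuclei, and 7 in fresh 10x sums and in the interaction, where the calls of Nphs1 and Wt1, at 0 in 3 and 2 warm 10x libraries, carry no weight, and the log2 change in number of podocyte-like barcodes warm against cold was -7.02 to -5.38. The counts of warm against cold stored sums also hold calls without weight, of Wt1 after cryopreservation and of all but Clic5 after methanol. With the replicate block by the number in the barcode headers, 4 members were called outside podocyte-like barcodes, 4 in warm cryopreserved sums (Podxl and Clic5 lost) and 6 in methanol-fixed against fresh sums, and the counts of the other C57BL/6J 10x comparisons stayed at 7, 6 and 1. No paired analysis was possible because the labels give the bulk and Balb/c groups no shared numbers. The cause of these changes was not tested. Genes listed at 0 are limited by the authors' filter of 10 barcodes.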

Other observations

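Over the 18 C57BL/6J 10x libraries, with genes not listed taken as 0, the genes whose log2(CPM + 1) sums were most like the mean of the 7 standardised members, among 9599 genes compared, were Plat (Pearson r 0.966), Itgb5 (0.949), Thsd7a (0.944), Iqgap2 (0.934) and H2-Q7 (0.933). These r values describe 18 libraries in 6 separate conditions and carry no p. Plat, which encodes tissue plasminogen activator, was at 109 to 156 CPM in cold fresh and 12.2 to 19.3 CPM in warm fresh sums. Thsd7a, a podocyte membrane protein and a marker used to name the podocyte-like cluster, was at 26.6 to 44.7 CPM in cold and 0 to 1.90 CPM in warm fresh sums, and at 5.28 to 9.72 CPM in cold methanol-fixed sums. H2-Q7 was at 101 to 131 CPM in cold and 19.0 to 22.0 CPM in warm fresh sums, and at 212 to 334 CPM in cold cryopreserved sums.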
